A study of Mus musculus with 2 samples.

Results

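Yolk sac and hepatic endoderm cells were picked out of a single-cell RNA sequencing comparison of wild-type (Usb1+/+) and germline Usb1-null (Usb1-/-) mouse embryos collected at E9.5. A barcode was taken as a member if it held 200 to 6000 detected genes, at least 1 molecule of Hnf4a, Cubn or Apob, at least 3 of the 10 markers Hnf4a, Cubn, Apob, Afp, Ttr, Apoa1, Apoa4, Apom, Rbp4 and Amn, and fewer than 3 molecules of Alb. This gave 63 members among 28196 barcodes, 13 from wild-type and 50 from Usb1-null embryos. The members were chosen by the measured counts of these 11 genes, so the levels of these genes are described and not tested. Both libraries were made from dissociated whole embryos on the droplet platform of 10X Genomics, which counts unique molecular identifiers (UMIs) near the 3′ end of transcripts. There was 1 library per genotype, the labels and methods do not state the number and litters of the embryos behind each, and the null allele is constitutive, so it was also carried by the extra-embryonic tissues of those conceptuses. Without replicate libraries no difference between genotypes could be tested. Values are given as CPM (UMIs of a gene per 1000000 UMIs) of the summed members with exact Poisson 95% intervals, and shares with exact Clopper-Pearson 95% intervals. Ratios carry an exact interval conditional on the summed count. None of the intervals covers more than counting error.

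Yolk sac visceral endoderm is the outer, absorptive epithelium of the yolk sac. It takes up maternal proteins through an apical receptor complex of cubilin, amnionless and megalin, and secretes Afp, transthyretin, retinol binding protein and apolipoproteins before the liver takes over this work. Hepatoblasts bud from the foregut endoderm at about the same stage and switch on many of the same secreted proteins under Hnf4a and its partner factors, so the 10 markers do not by themselves separate one tissue from the other. Usb1 trims the oligouridine tail of U6 snRNA, and the comparison asked whether its loss altered the cells present in the embryo.

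The wild-type library held 15162 barcodes with a median of 1243.5 UMIs and the Usb1-null library 13034 barcodes with a median of 2301 UMIs, so the Usb1-null library was 1.85 times as deep per barcode. Members showed the same gap, with a median of 1446 UMIs (range 614 to 2998) against 2611 (847 to 6827). The members summed to 19062 UMIs in wild-type and 144027 in Usb1-null, so that 1 UMI was worth 52.5 CPM in the former and 6.94 CPM in the latter. Usb1 itself was counted once among wild-type members and not at all among Usb1-null members, and at 3.13 CPM (2.43 to 3.97) and 1.40 CPM (1.03 to 1.86) in all other barcodes. The deleted exons lie upstream of the counted 3′ end, so these counts check the genotype labels little, though the lower level lay in the Usb1-null library. Scrublet marked 6.44% and 3.38% of barcodes as doublets, none of them members, and the libraries shared 61 barcode sequences. The wild-type library carried Xist and almost no Y-linked RNA while the Usb1-null library carried the reverse, so embryo sex, depth and genotype cannot be told apart wherever the libraries are compared.

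Members made up 0.0857% (0.0457 to 0.147) of wild-type barcodes and 0.384% (0.285 to 0.505) of Usb1-null barcodes, a ratio of 4.47 (2.39 to 8.98). Since the rule counts detected markers, deeper barcodes meet it more easily. After each barcode was thinned to 1000 UMIs, leaving out 4973 wild-type and 612 Usb1-null barcodes that held fewer, 5 of 10189 wild-type barcodes (0.0491%, 0.0159 to 0.114) and 31 of 12422 Usb1-null barcodes (0.250%, 0.170 to 0.354) still qualified. The ratio was then 5.09 (1.96 to 16.8), against 4.47 (2.17 to 10.3) for the same barcodes before thinning, when 9 and 49 qualified. The share in a dissociated whole embryo also depends on how much yolk sac was left attached at dissection, which the sources used here do not describe, and a lower share cannot be told apart from less efficient capture of these cells. The study also reports that Usb1-null embryos were clearly smaller at E9.5, and the part of embryo size in the share was not tested.

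**Figure D1:**
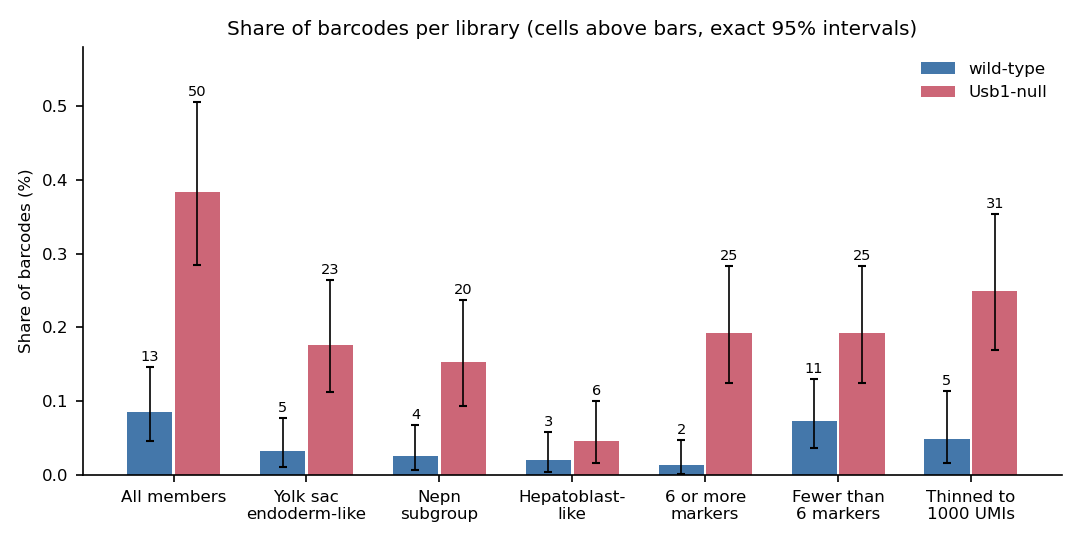
Share of barcodes in percent (y axis, starting at 0) for all members, their 3 subgroups, members with 6 or more and fewer than 6 markers, and members after thinning to 1000 UMIs, for wild-type (blue) and Usb1-null (red); error bars are exact 95% intervals and the numbers above them are cells. The Usb1-null bar is the higher of each pair, from 2.33 times in hepatoblast-like cells to 14.5 times in members with 6 or more markers, where the wild-type bar rests on 2 cells.

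The rule asked for 3 markers and many members held no more than that. Exactly 3 markers were found in 20 members, 8 had 4, 8 had 5, 4 had 6, 9 had 7, 12 had 8, 2 had 9 and none had all 10. Members with 6 or more markers numbered 2 in wild-type and 25 in Usb1-null, a ratio of shares of 14.5 (3.63 to 127), and those with fewer numbered 11 and 25, a ratio of 2.64 (1.25 to 5.95). A list of 18 other yolk sac endoderm genes summed to 4853 CPM (4234 to 5536) in Usb1-null members with 3 markers, 4510 CPM with 4 and 4183 CPM with 5, then to 10890 CPM (9779 to 12093) with 6 or 7 and 11028 CPM (10007 to 12126) with 8 or more. Wild-type members gave 3849 CPM (2597 to 5494) at 3 markers, 7005 CPM in the only cell with 4, 6333 CPM (4482 to 8693) with 5 and 8814 CPM (5384 to 13613) with 6 or 7, from 20 to 38 UMIs each, too few to place a step. A list of 10 hepatoblast genes peaked instead in members with 4 markers, at 2331 CPM (1706 to 3109) in Usb1-null and 2668 CPM in the only such wild-type cell, against 362 CPM in Usb1-null members with 8 or more. Just outside the rule, 9 wild-type and 27 Usb1-null barcodes held 2 markers. Their 10 rule markers summed to 1242 and 793 CPM, against 2822 and 1603 CPM in members with 3, and their yolk sac list to 2226 and 4480 CPM, against 3849 and 4853 CPM. The intervals of the yolk sac list in members with 3 markers and in the barcodes that just missed the rule overlapped in both libraries.

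Clustering of the 63 members on their variable genes, with the 10 rule markers and Alb left out, gave 2 subgroups. One of 28 cells, 5 wild-type and 23 Usb1-null, held nearly all members with 6 or more markers and is called yolk sac endoderm-like. At a finer resolution it stayed whole and the other 35 cells split into a subgroup of 24 (4 wild-type and 20 Usb1-null) led by Nepn, one of 9 (3 and 6) called hepatoblast-like, and 2 cells, 1 from each library, that joined neither. Names rested on lists of marker genes. Of the 18 yolk sac endoderm genes, 11 had 10 or more UMIs in the 28 cells and 8 of these were at least 2-fold above the other members on the scale of CPM plus 20, namely Lrp2, Dab2, Apoa2, Apoc2, Trf, S100g, Pdzk1 and Fgb, where 20.9% of all 1964 genes with as many UMIs were. All 3 of the 10 hepatoblast genes that reached 10 UMIs in the 9 cells, Prox1, Onecut1 and Dlk1, passed the same fold, against 25.3% of 371 genes. Of all 10, 8 had a UMI there. A gene could reach the minimum through the very cells in which it is high, so these counts describe the subgroups and lend their names no further support. In the 24 cells 1 of 14 gut and pharyngeal endoderm genes reached 10 UMIs, Epcam, and it passed the fold, against 19.9% of 1705 genes. That is too few to give the subgroup a tissue name, and it is called by its leading gene. The 2 subgroups named for yolk sac or liver cells thus held 37 of the 63 members. The lists do not mark 1 tissue alone. All 24 cells of the Nepn subgroup held UMIs of the yolk sac list, but so did 85.5% of the 28133 other barcodes. The list stood at 5461 CPM in the Nepn subgroup and 2528 CPM in the other barcodes. The 18 Usb1-null barcodes that the limit on Alb left out carried that list at 9862 CPM (8689 to 11150), beside 10706 CPM (9956 to 11499) in the yolk sac endoderm-like cells. Of its 18 genes, 9 had UMIs in the former and 17 in the latter. A UMI of the hepatoblast list was held by 7 of the 9 hepatoblast-like cells and by 19 of the 24 cells of the Nepn subgroup. It was also held by 14 of the 28 yolk sac endoderm-like cells and 28.3% of the other barcodes. With 500 variable genes in place of 1000 at the finer resolution, the 9 hepatoblast-like and the 24 Nepn cells fell into 1 subgroup of 37. Because the clusters were cut from these cells' own counts, differences between subgroups are described below and carry no test.

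**Figure D2:**
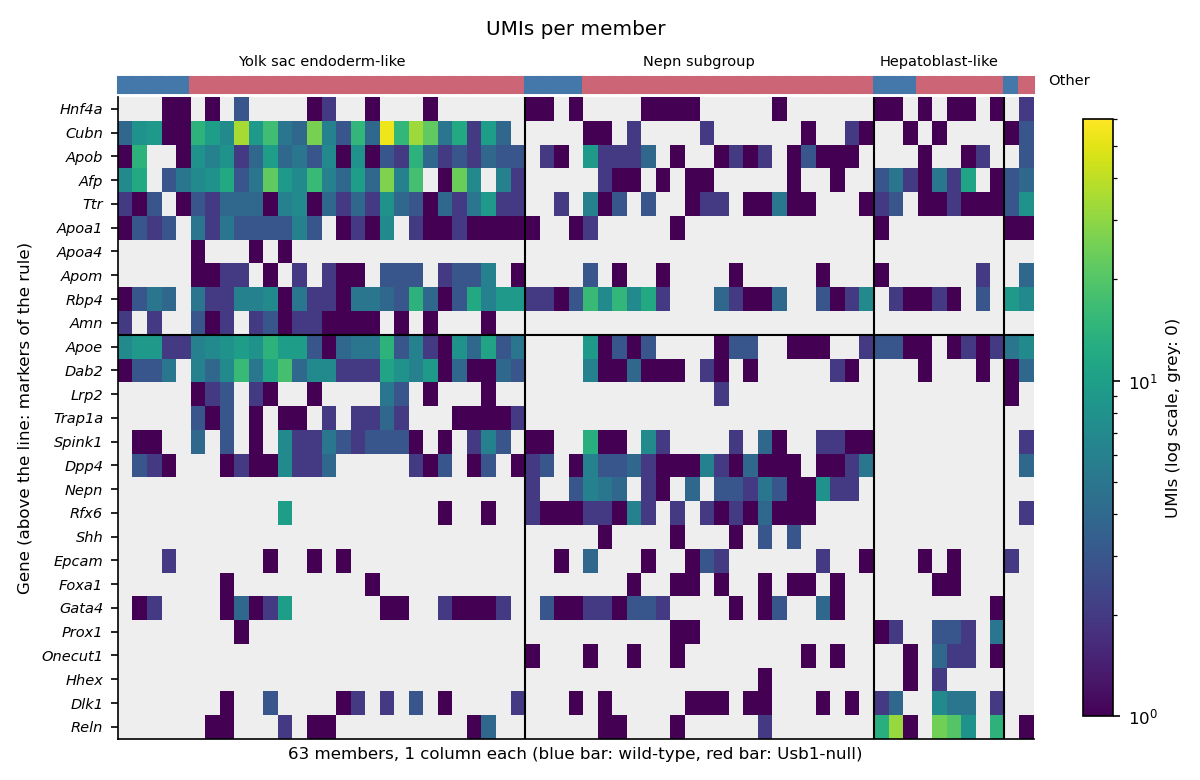
UMIs of 27 genes (rows, the 10 rule markers above the line) in each of the 63 members (columns), ordered by subgroup and library (blue bar wild-type, red bar Usb1-null); colour is on a log scale and grey is 0. Cubn, Afp, Apob, Apoe and Dab2 are found in most of the 28 yolk sac endoderm-like columns, Nepn and Rfx6 in 18 each of the 24 columns beside them, and Prox1 in 6 of the 9 hepatoblast-like columns.

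The receptor complex of absorbed proteins stood higher in the yolk sac endoderm-like cells, and its members Cubn and Amn were among the genes of the rule. Cubn (chr2:13276338-13491813, minus strand, mm10), which encodes cubilin, was detected in all 5 wild-type cells, at 1, 1, 4, 8 and 9 UMIs, and in 22 of 23 Usb1-null cells, at a median of 10 and up to 54 UMIs. The summed Cubn level was 4035 CPM in wild-type against 4820 CPM in Usb1-null yolk sac endoderm-like cells, against 150 and 177 CPM in the other members, a ratio of 27.5 (16.7 to 48.8) over both libraries. Amn (chr12:111271095-111276426, plus strand), whose product carries cubilin to the membrane, gave 27 UMIs in yolk sac endoderm-like cells and none in the other members, at least 11.8-fold higher with a floor of 3 UMIs. Dab2, the adaptor that links these receptors to the endocytic machinery, stood at 2105 CPM in wild-type against 2148 CPM in Usb1-null yolk sac endoderm-like cells, 6.85 times (4.58 to 10.6) its level in the other members. Lrp2, which encodes megalin, gave 20 UMIs against 3, all 20 in the Usb1-null library, and was 8.77 times (2.60 to 46.1) higher. The antisense transcript Gm13270 followed Cubn with 55 UMIs against 1, but it overlaps Cubn on the opposite strand, so reads of the pair may have been shared between them. The list of 26 endocytosis and lysosome genes as a whole was 2.69 times (2.31 to 3.15) higher.

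Among secreted proteins the ratios ranged widely, and the list of 22 apolipoprotein and lipoprotein assembly genes was 2.84 times (2.31 to 3.51) higher in yolk sac endoderm-like cells than in the other members. Afp, the main serum protein of the early conceptus, stood at 4737 CPM in wild-type against 3152 CPM in Usb1-null yolk sac endoderm-like cells, 6.61 times (4.80 to 9.28) the other members over both libraries. Apob and Apoa1, the structural proteins of lipoproteins, were 3.76 times (2.64 to 5.46) and 10.4 times (4.95 to 25) higher, Apoc2 gave 21 UMIs against 0, and Apoe was 4.23 times (3.11 to 5.84) higher. Trf, which encodes the iron carrier transferrin, gave 34 UMIs against 5, and the list of 15 iron and heme genes was 2.14 times (1.58 to 2.93) higher. Ttr was 2.26 times (1.59 to 3.23) higher, and Rbp4, which carries retinol, only 1.42 times (1.09 to 1.84). Rbp4 was thus the rule marker that most members had in common, with UMIs in 54 of 63. Hnf4a, the transcription factor at the head of the list, gave at most 3 UMIs in any member and stood at a ratio of 0.905 (0.380 to 2.08), which the rule bears on, since an Hnf4a UMI alone could stand in for Cubn and Apob. Glucose and lactate transporters followed the same direction, with Slc2a3 2.42 times and Slc16a1 2.14 times higher, and the transporter list was 2.01 times (1.72 to 2.35) higher.

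Some further genes of these cells were named after their values were seen. Trap1a, an X-linked gene expressed in placenta and yolk sac, gave 28 UMIs in 16 of the 28 yolk sac endoderm-like cells and none in the other members, and all 16 cells came from the Usb1-null library. With 5700 UMIs in the 5 wild-type cells, a count of 0 there allows a level of up to 526 CPM (3 UMIs), above the 433 CPM of the Usb1-null cells, so that a difference in Trap1a between genotypes was not detectable at this depth. Sfmbt2, an imprinted gene of extra-embryonic tissue, was 36.8 times (12.2 to 182) higher than in the other members, at 526 CPM in wild-type against 1251 CPM in Usb1-null yolk sac endoderm-like cells. Nrk, which restrains placental growth, stood at 702 and 865 CPM and gave 60 UMIs against 4. The exporters Abcc2 and Abcc4 gave 29 UMIs against 1 and 40 against 2, and Spp2, a secreted phosphoprotein, 24 against 0. The list of trophoblast markers gave 2 UMIs against 1. Markers of parietal endoderm, the other yolk sac endoderm, stood at a ratio of 1.26 (0.978 to 1.63) and were lower in hepatoblast-like cells, at 814 CPM against 1580 CPM in the Nepn subgroup, a ratio of 0.515 (0.298 to 0.846).

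**Figure D3:**
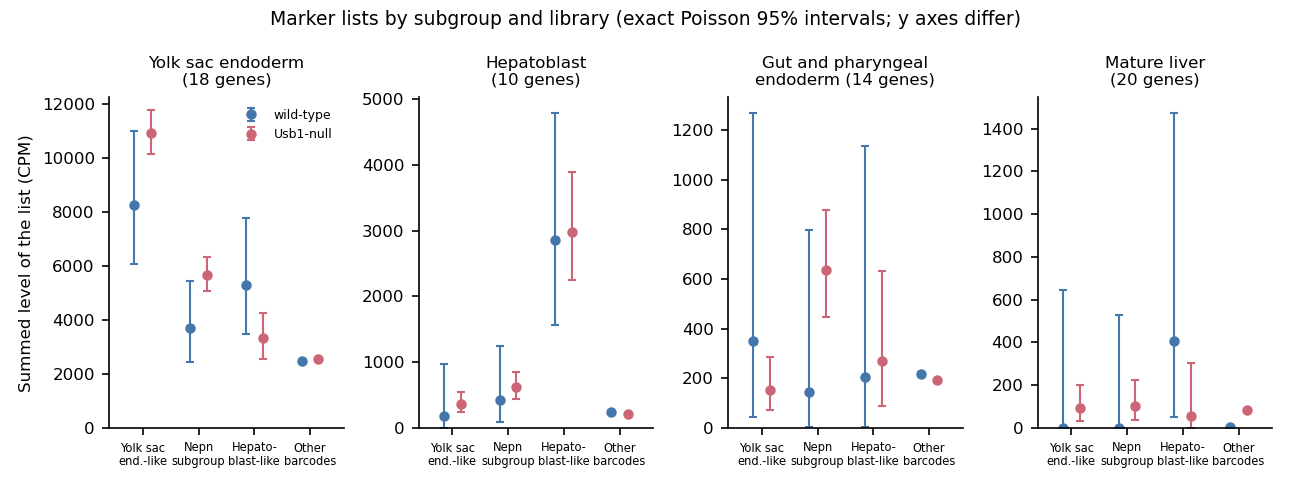
Summed level in CPM (y axes start at 0 and differ between panels) of 4 marker lists in the 3 subgroups and in all other barcodes, for wild-type (blue) and Usb1-null (red); error bars are exact Poisson 95% intervals. The yolk sac list was highest in yolk sac endoderm-like cells of both libraries (8246 and 10923 CPM) and the hepatoblast list in hepatoblast-like cells. The gut list was highest in Usb1-null cells of the Nepn subgroup (636 CPM, 448 to 877). Its interval there lay above those of Usb1-null yolk sac endoderm-like cells and of the other barcodes but overlapped the rest. The mature liver list stood at 5.75 CPM in wild-type against 81.8 CPM in Usb1-null other barcodes. Over both libraries it gave 6 UMIs in yolk sac endoderm-like, 6 in Nepn subgroup and 3 in hepatoblast-like cells (85.2, 92.0 and 129 CPM).

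The subgroup of 24 cells held less Afp, Apob and Ttr than the yolk sac endoderm-like cells and was led by Nepn, which encodes the small proteoglycan nephrocan of gut endoderm. Nepn (chr10:52388972-52404625, plus strand) gave 713 CPM in wild-type against 894 CPM in Usb1-null cells of the subgroup, was detected in 18 of 24 cells, and gave no UMI in the 28 yolk sac endoderm-like or the 9 hepatoblast-like cells. Rfx6, a transcription factor of gut and pancreatic endoderm, was detected in 4 of 4 wild-type and 14 of 20 Usb1-null cells and stood 2.97 times (1.5 to 6.32) above yolk sac endoderm-like cells. Shh, the ligand secreted by gut epithelium, gave 9 UMIs against 0, the endoderm factor Foxa1 8 against 2 and Gata6 10 against 1, and all of these lay in the Usb1-null library. The list of 14 gut and pharyngeal endoderm genes was 3.42 times (1.75 to 7.19) higher than in yolk sac endoderm-like cells. Of its 38 UMIs in the subgroup, 37 lay in the Usb1-null library, where it stood at 636 against 155 CPM in yolk sac endoderm-like cells. In wild-type the direction was reversed, at 143 CPM (1 UMI) against 351 CPM (2 UMIs). In the subgroup Sox2 and Pdx1 gave no UMI and Cdx2 gave 2, so these factors, unlike Rfx6, were at or near 0. Robo2, a guidance receptor, was 45.5 times (21.8 to 114) higher than in yolk sac endoderm-like cells. It was also counted in hepatoblast-like cells, and had UMIs in 37.9% and 55.1% of the barcodes outside the members. The part of free RNA in these shares was not tested. Dpp4 and Spink1, a surface peptidase and a secreted trypsin inhibitor, were shared by the Nepn subgroup and yolk sac endoderm-like cells, at ratios of 1.52 and 0.795, and gave no UMI in hepatoblast-like cells. Rbp4 (0.783) and Gata4 (1.01) were also shared, while Afp stood at 0.0421, Apob at 0.316 and Ttr at 0.356 of the yolk sac endoderm-like level.

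The 9 hepatoblast-like cells carried Prox1, which directs hepatoblast migration, at 611 CPM in wild-type against 706 CPM in Usb1-null, in 6 of 9 cells and 22.4 times (5.26 to 200) the level in the Nepn subgroup. Onecut1 and Onecut2, factors of hepatic and biliary fate, gave 10 UMIs against 6 and 9 against 4, ratios of 4.66 and 6.29, and Dlk1, a surface marker of hepatoblasts, was 7.76 times (3.50 to 18.9) higher. Hhex, which marks the earliest liver bud, gave 3 UMIs in all, and Cebpa, which rises as hepatocytes mature, gave none. The 10 hepatoblast genes summed to 2958 CPM against 598 CPM in the Nepn subgroup, a ratio of 4.94 (3.29 to 7.52), and the lists of plasma proteins and cholesterol synthesis were 2.49 times (1.72 to 3.61) and 2.61 times (1.85 to 3.67) higher. Afp was present in all 3 wild-type cells, at 2, 3 and 5 UMIs, and in 5 of 6 Usb1-null cells at up to 11, and Alb in 2 of 3 and 1 of 6 cells at 1 UMI each. The gene that stood furthest above the other members was Reln, the secreted protein reelin (chr5:21884454-22344702, minus strand), at 9374 CPM in wild-type against 3637 CPM in Usb1-null cells, 63.2 times (26.3 to 198) the Nepn subgroup. Reln was also abundant in barcodes with 20 or more globin UMIs, with UMIs in 78.6% of 98 such wild-type and 94% of 50 such Usb1-null barcodes. The primitive erythroid list stood at 257 CPM in hepatoblast-like cells and 153 CPM in the Nepn subgroup, a ratio of 1.68 (0.501 to 5.09), and its part in the Reln level was not tested.

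Markers of most tissues outside the endoderm were lower in members than in the other barcodes. In Usb1-null members, endothelial markers summed to 174 CPM against 314 CPM in the other barcodes, mesenchyme markers to 139 against 603 CPM, neural markers to 41.7 against 264 CPM and nephric markers to 62.5 against 163 CPM, while wild-type members gave between 0 and 2 UMIs of each of these lists. Of the 25 endothelial UMIs, 15 lay in yolk sac endoderm-like cells (213 CPM) and 1 in the Nepn subgroup. In hepatoblast-like cells the list stood at 343 CPM (148 to 676), from 8 UMIs in 3 Usb1-null cells, beside 315 CPM in all other barcodes and 22.4 times (3 to 992) the Nepn subgroup, and its part in the values of either subgroup was not tested. White blood cell markers gave 5 UMIs, all of 1 gene and in Usb1-null members, or 34.7 CPM against 23.4 CPM in the other Usb1-null barcodes. The nephric list matters because the kidney tubule also uses Cubn, Amn and Lrp2. Primitive erythroid markers stood at 682 CPM (363 to 1166) in wild-type against 167 CPM (107 to 248) in Usb1-null members, close to the 889 and 229 CPM of the other barcodes.

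Free RNA could place rule markers in cells that do not make them, so they were also counted in globin-rich barcodes, blood cells that should lack them. There they summed to 60.4 and 90.3 CPM in wild-type and Usb1-null, from 11 UMIs in 2 of 98 and 18 UMIs in 4 of 50 barcodes. All barcodes outside the members gave 28.0 and 39.4 CPM. Among them, wild-type first, Apoa1 (1.75 and 5.41 CPM), Apob (1.01 and 3.06) and Ttr (5.34 and 10.8) were higher in Usb1-null. Afp (9.57 and 5.77) and Amn (0.966 and 0.654) were lower. The mature liver list differed more, with 125 wild-type UMIs against 2750, a ratio of 14.2 (11.9 to 17.1). Of the 2750, 983 lay in the 18 barcodes left out for Alb. The part of this difference in the members' share and marker levels was not tested. Of all rule-marker UMIs, 20.7% in wild-type and 47.6% in Usb1-null lay in members. Cubn was seen in 1 of 98 and 1 of 50 globin-rich barcodes (median 1194.5 and 2775 UMIs), and in 53.8% of wild-type and 62.0% of Usb1-null members (median 1446 and 2611 UMIs), which the rule picked for such markers. The part of free RNA in the members' own markers was not tested.

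Against all other barcodes, 30 of the 536 genes with 50 or more UMIs in members (5.6%) were at least 4-fold higher in both libraries. The rule chose 7 of these, and the rest describe what the same cells expressed beside it. Outside the rule, Dpp4 stood 56.8-fold higher in wild-type and 39.4-fold in Usb1-null, the chloride channel protein Clic6 33.6-fold and 31.6-fold, Spink1 23.5-fold and 59.6-fold, and Myo6, a motor of endocytic traffic at microvilli, 11-fold and 12.3-fold. Apoe was 17.1-fold and 17.0-fold higher, Nepn 21.4-fold and 20.8-fold, Nrk 13-fold and 23.5-fold and Dab2 8.39-fold and 13.6-fold. Lgmn, a lysosomal protease, Prdm1, a repressor used in visceral endoderm and gut, and Gata4, a factor needed for endoderm, were also on the list, Gata4 at 4.98-fold and 4.04-fold. All folds are on the scale of CPM plus 5.

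Promoters of these genes were read for the letters bound by liver and endoderm factors. Of the 33 genes that were rule markers or on this list, 26 had a RefSeq start in the table used (GRCm38.p6). In the 250 bases before any start of a gene, on either strand, the HNF1 half-site GTTAAT was found for 5 of 26 (19.2%; Afp, Apoe, Dab2, Hnf4a and Patj) and for 7.49% of all 27025 genes, the FOXA site TGTTTAC for 4 of 26 (15.4%; Nepn, Rbp4, Prdm1 and 9030622O22Rik) and 3.54%, the GATA site AGATAA for 4 of 26 (15.4%) and 11.4%, and the HNF4 core AAAGTCC for 0 of 26 and 4.15%. The GATA site of Nepn lies beyond the bases shown here. A match is a run of letters and was not shown to be bound. Genes with more starts had more bases in which to match, and the shares were not matched for this. Apoe, Dab2, Hnf4a, Patj and 9030622O22Rik each had several starts. The windows, each of 200 bases, one for the serum protein Afp of the yolk sac endoderm-like cells, one for the factor Hnf4a and one for Nepn, are shown 5′ to 3′ on the plus strand, on which all 3 genes lie. The Hnf4a and Nepn windows lie inside the annotated genes, which begin at chr2:163506808 and chr10:52388972. The start of the Hnf4a window was not found in a GENCODE transcript. Another Hnf4a window, whose start was found and which holds a GATA site, is not shown. Capitals mark the HNF1 half-site in Afp, which begins 105 bases upstream of the start, its reverse complement at 2 places in Hnf4a, and the FOXA site in Nepn, 158 bases upstream.
Afp promoter, chr5:90490514-90490713: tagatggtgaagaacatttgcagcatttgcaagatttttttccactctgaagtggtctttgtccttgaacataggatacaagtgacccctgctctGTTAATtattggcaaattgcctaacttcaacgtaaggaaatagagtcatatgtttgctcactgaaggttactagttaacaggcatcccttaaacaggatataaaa
Hnf4a promoter, chr2:163546955-163547154: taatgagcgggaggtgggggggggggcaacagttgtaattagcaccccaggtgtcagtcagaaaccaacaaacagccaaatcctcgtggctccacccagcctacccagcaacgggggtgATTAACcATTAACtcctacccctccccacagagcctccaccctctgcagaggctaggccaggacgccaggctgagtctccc
Nepn promoter, chr10:52391408-52391607: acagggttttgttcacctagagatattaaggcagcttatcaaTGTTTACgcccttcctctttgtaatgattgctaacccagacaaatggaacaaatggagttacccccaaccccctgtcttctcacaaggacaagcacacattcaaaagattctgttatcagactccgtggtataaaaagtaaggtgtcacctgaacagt

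Between genotypes, the rule markers, whose values chose the members, summed to 8341 CPM in wild-type against 8353 CPM in Usb1-null, a ratio of 1.00 (0.848 to 1.19). The subgroups were not equal in this, with ratios of 0.826 (0.672 to 1.02) in yolk sac endoderm-like cells, 0.521 (0.309 to 0.902) in hepatoblast-like cells, 1.20 (0.737 to 2.07) in the Nepn subgroup and 0.551 (0.424 to 0.730) in members with 6 or more markers, where wild-type had 2 cells. Single markers lay on both sides of this. Cubn was higher in Usb1-null members, at 1312 CPM (25 UMIs) in wild-type against 2263 CPM (326 UMIs) in Usb1-null, a ratio of 1.73 (1.15 to 2.71). Within yolk sac endoderm-like cells, which made up 38.5% of wild-type and 46.0% of Usb1-null members, the Cubn ratio was 1.19 (0.782 to 1.91). Apom, a lipoprotein carrier of sphingosine phosphate, was counted once in wild-type and 50 times in Usb1-null members, 52.5 against 347 CPM, a ratio of 6.62 (1.13 to 267). Apob (1.02) and Ttr (0.989) differed little in summed level, and Afp (0.784, 0.559 to 1.13), Rbp4 (0.850), Apoa1 (0.590, 0.320 to 1.17), Amn (0.761) and Hnf4a (0.378, 0.154 to 1.06) were lower in Usb1-null with intervals that include 1. Apoa4 gave 0 and 3 UMIs.

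Of the 536 genes with 50 or more UMIs in members, 58 were at least 2-fold higher in Usb1-null (10.8%), the rule marker Apom among them, and 17 at least 2-fold lower (3.17%), on the scale of log2 CPM plus 5. With the minimum lowered to 20 UMIs, used for the lists, these were 397 (18.3%) and 170 (7.83%) of 2172 genes, with a median log2 ratio of 0.05. Of 8 counted yolk sac endoderm genes outside the rule, 6 were higher in Usb1-null and 3 of them passed 2-fold, with a median of 0.77. Spink1 stood at 210 against 625 CPM, a ratio of 2.98 (1.12 to 11.2), Emb, a surface glycoprotein, at 944 against 1625 CPM, a ratio of 1.72 (1.06 to 2.95), and Gpc3, a proteoglycan that many embryonic cells express, at 2361 against 3208 CPM, a ratio of 1.36 (0.999 to 1.89). Summed over the 18 genes the list stood at 5718 and 7776 CPM, a ratio of 1.36 (1.12 to 1.67). The ratio was 1.32 (0.985 to 1.82) within yolk sac endoderm-like cells and 1.53 (1.02 to 2.38) within the Nepn subgroup, but 0.625 (0.389 to 1.03) within hepatoblast-like cells. In the other barcodes the median of the same genes was 0.18.

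Secreted products differed in both directions. Of 5 counted genes of the apolipoprotein and lipoprotein assembly list 3 were higher in Usb1-null and 2 passed 2-fold, with a median of 0.02, and of 5 counted plasma protein genes 2 were higher. Apoe was lower in Usb1-null members, at 2151 CPM (41 UMIs) in wild-type against 1326 CPM (191 UMIs) in Usb1-null, a ratio of 0.617 (0.438 to 0.886). It was also lower within yolk sac endoderm-like cells, at 5088 and 2287 CPM and a ratio of 0.449 (0.300 to 0.694), and in the other barcodes, at 121 and 73.4 CPM and a ratio of 0.606. The list of 40 plasma proteins summed to 2623 and 1708 CPM, a ratio of 0.651 (0.479 to 0.901), although none of its counted genes passed 2-fold. The ratio was 0.576 (0.366 to 0.949) within yolk sac endoderm-like and 0.506 (0.287 to 0.918) within hepatoblast-like cells, but 1.18 (0.513 to 3.36) within the Nepn subgroup. The apolipoprotein and lipoprotein assembly list stood at a ratio of 0.763 (0.584 to 1.01), at 0.679 (0.474 to 1.00) in yolk sac endoderm-like cells, 0.444 (0.225 to 0.906) in hepatoblast-like cells and 0.455 (0.289 to 0.756) in members with 6 or more markers, but at 1.29 (0.597 to 3.32) in the Nepn subgroup.

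Transport and endocytosis genes are to be read against all counted genes, of which 1139 of 2172 were higher in Usb1-null. Of 14 counted endocytosis and lysosome genes 10 were higher and 4 lower, with 3 and 1 past 2-fold and a median of 0.38. The summed list stood at a ratio of 1.21 (0.954 to 1.56), and at 0.914 (0.672 to 1.27) with a median of -0.11 within yolk sac endoderm-like cells. Of 7 counted transporters 5 were higher and 3 passed 2-fold, with a median of 0.88, or 0.47 with the 1 gene at 0 in wild-type set at its floor. The summed transporter list stood at a ratio of 1.28 (0.992 to 1.69), and at 1.02 (0.712 to 1.5) within yolk sac endoderm-like cells. Dab2 stood at 682 and 1160 CPM, a ratio of 1.70 (0.967 to 3.26), Ctsl, a lysosomal protease, at 420 and 757 CPM, a ratio of 1.80 (0.883 to 4.28), and Slc2a3 at 1207 and 1673 CPM, a ratio of 1.39 (0.903 to 2.23). Within yolk sac endoderm-like cells the ratio was 1.02 (0.566 to 2.02) for Dab2 and 0.853 (0.509 to 1.53) for Slc2a3. Slc2a1, the glucose transporter of most cells, stood at 210 and 521 CPM (2.48, 0.930 to 9.34), beside 541 and 523 CPM in the other barcodes. Transcription factors were fewer. Gata4 and Nr5a2 were the only 2 of 28 endoderm factors with 20 UMIs, and Nr5a2 was lower in Usb1-null, at 630 and 167 CPM, a ratio of 0.265 (0.127 to 0.581). The Nr5a2 ratio was 0.622 (0.224 to 1.97) within hepatoblast-like cells, which held 20 of its 36 UMIs and were 3 of 13 wild-type and 6 of 50 Usb1-null members, and 0.181 (0.0574 to 0.617) within the Nepn subgroup.

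**Figure D4:**
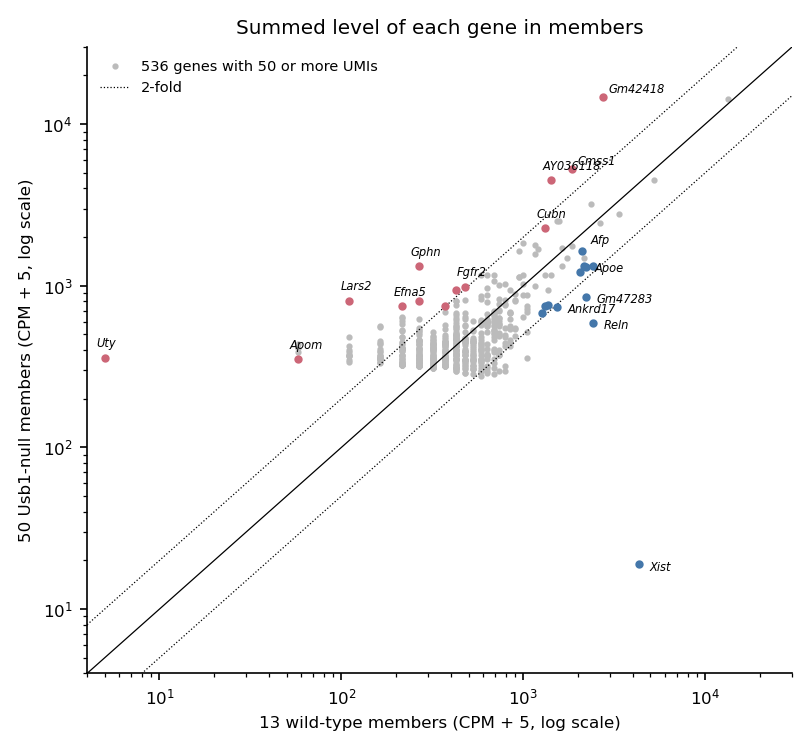
Summed level of 536 genes in the 13 wild-type members (x axis) and the 50 Usb1-null members (y axis), as CPM plus 5 on log scales; the solid line marks equal levels and the dotted lines a 2-fold difference, and coloured points are genes named by rule (red higher in Usb1-null, blue lower). The vertical stripes at left are steps of 1 wild-type UMI, worth 52.5 CPM, and Gm42418 (above) and Reln and Xist (below) lie beyond the 2-fold lines.

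Several of the largest differences were not particular to the members. Gm42418 and AY036118, which overlap ribosomal RNA repeats, and Cmss1 were 5.4 (4.1 to 7.25), 3.16 (2.15 to 4.84) and 2.86 (2.04 to 4.14) times higher in Usb1-null members, and 4.63, 5.10 and 3.15 times higher in the other barcodes. Lars2, a mitochondrial tRNA ligase, was 7.68 times (2.08 to 64.1) higher in members and 4.12 times in the other barcodes, Gphn 5 times and 2.08 times, and Gm47283, at the boundary of the sex chromosomes, 0.384 and 0.295 times. Others differed less or in the other direction outside the members. Efna5, an ephrin ligand, was 3.54 times (1.34 to 13.2) higher in Usb1-null members but 0.936 times as high in the other barcodes, and Peg3, an imprinted regulator of growth, 3.07 times (1.28 to 9.63) and 1.06 times. mt-Co3 was 1.84 times (1.15 to 3.1) higher in Usb1-null members and 0.406 times as high in the other barcodes, but its log2 ratio turned to -0.062 within yolk sac endoderm-like members, -0.18 after thinning to 1000 UMIs and -0.83 in members with 6 or more markers. Mitochondrial transcripts made up 0.493% and 0.753% of member UMIs and 0.437% and 0.195% of the rest, up to 2.35% and 5.24% in single members, and their part in the differences between genotypes was not tested.

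Among the genes at a lower level, Reln was 0.242 times (0.167 to 0.354) as high in Usb1-null members, at 2413 and 583 CPM. All 46 wild-type Reln UMIs came from the 3 hepatoblast-like cells, at 1, 13 and 32 UMIs, and within that subgroup the ratio was 0.388 (0.263 to 0.578). Without the hepatoblast-like cells the wild-type members had no Reln UMI. Ankrd17 stood at 1521 and 736 CPM (0.484, 0.318 to 0.757), and at 0.969 (0.391 to 3.1) within yolk sac endoderm-like and 0.329 (0.165 to 0.664) within hepatoblast-like cells. Fndc3b stood at a ratio of 0.555 (0.359 to 0.887) and Etl4 at 0.572 (0.367 to 0.922), against 1.01 and 1.00 in the other barcodes. Srebf2, the master regulator of cholesterol synthesis, stood at 420 and 111 CPM (0.265, 0.107 to 0.714). The list of 20 cholesterol genes to which it belongs did not follow, at a ratio of 0.866 (0.599 to 1.29), with 2 of 4 counted genes higher and 2 lower, and at 2.05 (0.773 to 7.67) in yolk sac endoderm-like, 1.57 (0.797 to 3.45) in hepatoblast-like and 0.565 (0.307 to 1.12) in Nepn subgroup cells.

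Over all members, stress and cell cycle lists differed by less than their counting error. The unfolded protein response list stood at 4144 and 4735 CPM (1.14, 0.904 to 1.46), p53 targets at 839 and 729 CPM (0.869, 0.511 to 1.58), hypoxia and glycolysis at 2256 and 2638 CPM (1.17, 0.852 to 1.64), dissociation stress at 997 and 979 CPM (0.982, 0.606 to 1.68) and proliferation at 1469 and 1639 CPM (1.12, 0.752 to 1.72). These intervals reach down to 0.511 and up to 1.72, so that equal levels were not shown. In the Nepn subgroup alone, the unfolded protein response list was 2.14 times (1.23 to 4.08) and the hypoxia and glycolysis list 2.07 times (1.13 to 4.22) higher in Usb1-null, from 13 and 11 UMIs in 4 wild-type cells. Primitive erythroid markers moved there too, with 8 UMIs in the 4 wild-type cells (1141 CPM, 493 to 2249) and 2 in the 20 Usb1-null cells (34.4 CPM, 4.16 to 124), and their part in these ratios was not tested.

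Members carried the sex-linked RNA of their own library. Y-linked transcripts stood at 653 CPM (527 to 799) in Usb1-null members and 701 CPM in the other Usb1-null barcodes, a ratio of 0.931 (0.752 to 1.14), with UMIs in 40 of 50 members, and wild-type members had none. Xist stood at 4302 CPM in wild-type members, with UMIs in 11 of 13, and at 2449 CPM in the other wild-type barcodes, a ratio of 1.76 (1.40 to 2.18), and gave 2 UMIs in Usb1-null members. The yolk sac endoderm-like cells alone gave 664 CPM (481 to 895) of Y-linked RNA in Usb1-null, an interval that includes the level of the other barcodes, and 4211 CPM (2698 to 6265) of Xist in wild-type, above the other barcodes. Usb1-null hepatoblast-like cells gave only 5 Y-linked UMIs (271 CPM), against 44 (756 CPM) in those of the Nepn subgroup. The cause of this lower value was not tested. Y-linked RNA cannot come from maternal tissue, whereas Xist can, and a maternal part in the wild-type members was not tested.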

How the data were processed

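The deposited matrices hold raw UMI counts per gene and barcode, which the authors made with Cell Ranger from 10X 3′ libraries of whole embryos (the matrix headers give version 6.1.2, the submitters' processing notes 2.1.1 with mm10). The labels name nuclear RNA, the protocol a single-cell suspension. All 32285 genes were read, and 99.6% of identifiers matched GENCODE M21 (GRCm38). The study's filter of 200 to 6000 genes and under 30% mitochondrial UMIs left 15161 wild-type and 13018 Usb1-null barcodes, and the study counts fewer wild-type cells and the same number of Usb1-null cells as the file holds. Depths are given with the results. Counts were summed over cells per library, and the members' 2 sums were compared without a test, since there was 1 library per genotype; a gene was called at 2-fold on log2(CPM + 5) with 50 or more UMIs (20 for list genes). A count of 0 was bounded by 3 UMIs.

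Doublets were scored with Scrublet in Scanpy 1.11.5 at an expected rate of 10%. Members were clustered (Leiden, leidenalg 0.10.2, resolution 0.5, 1000 variable genes, 20 components, 15 neighbours) with the rule genes left out. Variable genes were first ranked by variance over mean of log values, and this was replaced by Pearson residual variance after a test on simulated data failed and the first subgroups had been seen. The Nepn and hepatoblast-like subgroups come from resolution 1.0. Limits for raised markers (10 UMIs, 2-fold, CPM + 20) and leading genes (15 UMIs) were also set after seeing the data. Thinning drew 1000 UMIs per barcode without replacement. Python 3.11.15, NumPy 2.4.6, SciPy 1.17.1 and pandas 2.3.3 were used. Promoters are from RefSeq on GRCm38.p6.

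The members and gene lists were chosen with earlier results of these data known. Named genes were the rule markers and Alb, the 15 other genes furthest above other barcodes, the 10 highest and 10 lowest between genotypes and the 5 highest and 5 lowest against other barcodes (100 or more UMIs), and of each list the 2 with most UMIs and the 2 highest and 2 lowest ratios. Genes of the subgroups beyond these were chosen after their values were seen.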

Additional observations from a re-analysis of the deposited data

Results flagged for a closer look

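In the Usb1-null library, 18 barcodes met the marker rule but held 3 or more Alb UMIs and so lie outside the members, and the wild-type library held none. They made up 0.138% (0.0819 to 0.218) of Usb1-null barcodes, where a count of 0 in wild-type allows a share of up to 0.0198% (3 barcodes). They were noted because they carry a signal outside the comparisons above. A list of 20 genes of mature liver gave 983 UMIs there, of which Alb, by which these barcodes were set apart, gave 513. The other 19 genes gave 470 UMIs (18177 CPM, 16571 to 19897), against 5 UMIs (34.7 CPM, 11.3 to 81.0) in the 50 Usb1-null members and 0 in the 13 wild-type members. Alb ranged from 4 to 62 UMIs per barcode with a median of 22.5, and Mup3, a urinary protein of adult liver, was found in 16 of 18, with Cps1 of the urea cycle at 62 UMIs. Afp gave 2 UMIs in 1 barcode and Cubn 1, and the 10 hepatoblast genes gave 14 UMIs. The list of 18 yolk sac endoderm genes gave 255 UMIs, at 9862 CPM (8689 to 11150), a level whose interval overlaps that of the yolk sac endoderm-like cells. These UMIs came from 9 of the 18 genes. The list of 40 plasma proteins stood at 19569 CPM (17901 to 21351), against 2357 CPM (2012 to 2744) in the yolk sac endoderm-like cells. Y-linked transcripts gave 17 UMIs and Xist 4, all 4 in 1 barcode. Where the barcodes came from was not tested.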

How the results depend on the processing

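Each group was 1 library, so leaving out a replicate does not apply. No paired analysis was possible because there was 1 library per genotype and no test was run. The reported values were a 4.47-fold ratio of shares (0.0857% and 0.384%), 42.9% of members with 6 or more markers, 30 genes at least 4-fold higher than in other cells, 58 genes higher and 17 lower by 2-fold in Usb1-null members, 9 lists with a median above that of all counted genes, and 2 subgroups; of 118 values of such results under alternatives, 42 moved and 0 reversed. Where a value moved, the cause was not tested.

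The number of markers asked for moved the membership. With 2 or more markers, the Usb1-null share was 0.591%, 27.3% of members had 6 or more markers, 89 genes were higher and 29 lower, and 2 medians changed sign (gut and pharyngeal endoderm markers, 0.21 from -0.97, and p53 targets, 0.67 from -1.30, all on the log2 scale). With 4 or more, the share was 0.269%, 62.8% had 6 or more, 36 genes were higher and 11 lower, the median of the endoderm transcription factors was 0.60 from -1.06, and Mid1 was 0.14 from -0.76. With 6 or more, the shares were 0.0132% and 0.192% with a ratio of 14.5, 15 genes were 4-fold higher than elsewhere, 34 were higher and 10 lower between genotypes, and the dissociation stress median was 0.32 from -0.37. The wild-type group then held 2 members, and 8 genes changed sign: Cubn to -0.25 from 0.78, 9030622O22Rik to 5.98, Reln to 5.12, Auts2 to 0.46, Mid1 to 6.42, Maml3 to 0.39 and Srebf2 to 4.87 from values below 0, and mt-Co3 to -0.83 from 0.88. Values of 4.87 or more for single genes stand against 0 wild-type UMIs and depend on the 5 CPM added. Without Afp, Ttr and Rbp4 among the markers, the shares were 0.0396% and 0.199%, 84.4% of members had 6 or more markers, 19 genes were 4-fold higher than elsewhere, and 26 were higher and 6 lower between genotypes. With the Alb-rich barcodes kept, the Usb1-null share was 0.522% and 29 genes were lower. In the main setting, 1 counted gene each, Epcam and Mdm2, gave the medians of the gut and pharyngeal endoderm markers and of the p53 targets. Those of dissociation stress and of the endoderm transcription factors rested on 2 each. Genes that met the minimum of UMIs numbered 1224, 203 and 86 with 2, 4 and 6 or more markers. They numbered 110 without Afp, Ttr and Rbp4 and 667 with the Alb-rich barcodes, against 536 in the main setting.

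Depth and the minimum count moved the counts of genes. At 1000 UMIs a barcode, the Usb1-null share was 0.250%, 9 genes were 4-fold higher than elsewhere, 8 were higher and 1 lower between genotypes, 4 lists lay above all genes, and mt-Co3 was -0.18. A minimum of 10 UMIs gave 991 genes higher and 489 lower (median of the gut and pharyngeal endoderm markers, 1.59), and a minimum of 200 gave 3 and 0, with 2 lists above all genes. Without limits on detected genes, 197 were higher and 56 lower (medians of the p53 targets, 4.21, and of dissociation stress, 0.21); with at least 1000 detected genes, the dissociation stress median was 0.14. Within the yolk sac endoderm-like members, 21 genes were higher and 3 lower, the dissociation stress median was 0.16, 9030622O22Rik was 0.80, Reln 5.13, Maml3 1.12 and mt-Co3 -0.062; within the others, 23 were higher and 8 lower. The first measure of variable genes gave 1 subgroup, and resolution 1.0, also with 10 neighbours or another seed, gave 4; resolution 1.0 gave 3 with the rule markers kept and 2 with 500 variable genes, where the hepatoblast-like and Nepn cells were not separated. Genes that met the minimum of UMIs numbered 25 at 1000 UMIs a barcode, 4402 and 26 at minimums of 10 and 200 UMIs. They numbered 1116 without limits on detected genes, 72 within the yolk sac endoderm-like members and 171 within the others. The main setting had 536. Among list medians, 195 of 259 values stayed, 55 moved and 9 reversed. Among named genes, 1406 of 1566 stayed, 146 moved and 14 reversed.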

Other observations

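Imprinted and matrix genes add to the description of the members. Meg3 and Rian, noncoding RNAs of 1 imprinted cluster, stood at 5246 and 1154 CPM in wild-type members and 4506 and 1777 CPM in Usb1-null members, against 1582 and 391 CPM in the other wild-type barcodes. Among basement membrane genes of the parietal endoderm list, Lamc1 was at least 1.41-fold higher in Usb1-null members, with 0 wild-type UMIs (a floor of 157 CPM for 3 UMIs) against 222 CPM (152 to 314). Lama1 stood at 52.5 against 215 CPM, a ratio of 4.10 (0.684 to 167), Lamb1 at a ratio of 0.979 (0.384 to 3.19) and Col4a2 at 0.953 (0.373 to 3.11), with intervals that include 1. Among chaperones of the secretory pathway, Pdia3 gave 1 and 59 UMIs, a ratio of 7.81 (1.35 to 314), while Hspa5 (1.26, 0.693 to 2.50) and Pdia6 (0.734, 0.383 to 1.55) did not follow it. Of the tight junction genes, Tjp1 stood at a ratio of 1.12 (0.401 to 4.36) and Cldn7 at 3.97 (0.660 to 162), from 1 wild-type UMI.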
